A study of Mus musculus with 13 samples.

Results

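The genes described here are the translation initiation and elongation factors of mouse skin. They are all genes of the deposited tables whose symbol starts with Eif or Eef followed by a digit, without the sex-linked pair Eif2s3x and Eif2s3y. This rule took 63 of 27998 genes and used no measured value. The tables come from droplet-based single cell RNA-seq of wild type (WT) and Grhl3-/- C57BL/6 mice, which are littermates in which the epidermal transcription factor GRHL3 is present or deleted. At the embryonic ages E14.5 and E16.5 whole back skin was dissociated, and at P0, the day of birth, the back epidermis was first separated from the dermis. Each genotype and age had 2 libraries made with version 2 reagents, and 1 more P0 WT library was made with version 1 reagents. Age, litter, tissue, dissociation and, in WT, the sex pattern of the libraries cannot be told apart between E16.5 and P0. No source states how much of Grhl3 is deleted, and all Grhl3-/- animals carried spina bifida.

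Protein synthesis starts when the cap-binding eIF4 complex recruits an mRNA to a small ribosomal subunit that carries eIF3 and the eIF2-bound initiator tRNA, which then searches for the start codon. The eIF2 kinases and the eIF4E-binding proteins restrain this step under stress or when mTOR signaling is low. During elongation eEF1A delivers aminoacyl-tRNAs, eEF2 moves the ribosome along the mRNA and is switched off by the kinase Eef2k, and eIF5A helps the ribosome through difficult stretches. In the epidermis the output changes from a dividing basal cell to a suprabasal cell that makes keratins and envelope proteins in bulk.

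The 13 libraries held 49245953 to 107038146 unique molecular identifiers (UMIs), and 5058 to 9157 cells per library passed the filters. Cells were clustered without the 63 genes, and clusters were named from fixed markers: basal-like and suprabasal-like interfollicular keratinocytes, and other skin cells such as fibroblast-like, muscle-like, endothelial-like and macrophage-like cells. In the version 2 libraries 52.5% to 63.1% of kept cells at P0 and 15.2% to 29.6% before birth lay in clusters that stayed unnamed and entered no class or test. No pair of libraries shared more than 131 cell barcodes. A version 2 library gave 135 to 1388 basal-like and 63 to 625 suprabasal-like cells, and UMIs were summed per library and class so that the library was the unit of every test. Grhl3 itself was lower in suprabasal-like cells of both Grhl3-/- libraries at each age, at 62.0 and 63.7 counts-per-million (CPM) against 86.2 and 106 at E14.5, 19.6 and 14.2 against 38.6 and 37.6 at E16.5, and 10.0 and 19.0 against 30.1 and 27.7 at P0. In basal-like cells the values were 4.03 and 4.17 against 7.83 and 8.56 at E14.5 and 0.96 and 2.63 against 4.92 and 4.36 at P0. At E16.5 they hardly differed there, at 4.61 and 4.67 against 4.68 and 5.21. UMIs of Grhl3 therefore remained in the Grhl3-/- libraries, and whether their 3′ tags lie outside the deleted part is not given in the sources used here. The sex-linked transcripts Xist and Ddx3y showed a female and a male library in only the E14.5 WT and the E16.5 Grhl3-/- groups. Both E16.5 WT libraries were female in pattern, and all P0 and E14.5 Grhl3-/- libraries were male. This disagrees with the methods of the study, which describe a male and a female animal for each genotype and time point. The suprabasal-like class differed in make-up, because granular clusters gave 29.9% and 26.4% of it in the P0 WT libraries but 5.69% and 43.5% in the P0 Grhl3-/- libraries. Clusters were named over all libraries of an age together, and granular markers were lower in both P0 Grhl3-/- libraries than in WT, as given below.

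Together the 63 genes gave 20457301 UMIs, or 2.18% to 2.61% of the UMIs of a library. The elongation factors were the most abundant group with 11266996 UMIs from 9 genes, and Eef1a1 alone, which encodes the tRNA-delivering factor eEF1A1, gave 29.0% of all UMIs of the 63 genes. By its symbol the group takes in Eef1e1, which encodes a scaffold protein of the aminoacyl-tRNA synthetase complex. The 14 eIF3 genes gave 3871369 UMIs, the 11 genes of start site selection and initiator tRNA delivery 2565625, and the 12 eIF4 genes 2135857. The regulators were scarce by comparison. The 4 inhibitors of cap binding gave 202970 UMIs, the 5 eIF2B genes 164928, Eif6 155611, the 2 modifiers of eEF2 56119 and the 4 eIF2 kinases 37741. Eef1a2, the form of eEF1A known from muscle and neurons, had 122 UMIs in all kept cells and was at 0 in the basal-like and suprabasal-like sums of all 12 version 2 libraries. Eif4e1b and Eif4ebp3 had 2 UMIs each and Eif2c5, annotated as a long noncoding RNA, had 85. In GENCODE vM21 on mm10, the build of the files, Eef1a1 lies at chr9:78478449-78489151 (minus strand), Eif5a at chr11:69916714-69921958 (minus), Eif6 at chr2:155819832-155826925 (minus), Eef2k at chr7:120842831-120907450 (plus) and Eif4ebp1 at chr8:27260329-27276674 (plus). Eef1a1, Eif5a and Eif4a1 have processed copies elsewhere in the genome, and their levels are uncertain where reads fit both. Since 1 UMI stands for 1 captured 3′ end, these numbers compare captured molecules and need no correction for transcript length.

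Many mRNAs of the translation machinery begin with a terminal oligopyrimidine tract, a C followed by a run of pyrimidines that links their translation to mTOR. The bases at the annotated RefSeq starts of the members on GRCm38.p6 were therefore read. The sequences below run from 5 bases before the annotated start to 20 bases from it, with the matching tract in capitals. Eif3f and Eef1a1 are shown because their matches were the longest, and the others because their levels are described below.
Eif3f, chr7:108934410-108934434, plus strand: gctCTCTCTCTTTCTCggcaagatg
Eef1a1, chr9:78481705-78481729, minus strand: ccCTCTTCCCgagggtgggggagaa
Eif3l, chr15:79075218-79075242, plus strand: cttCTTCCgctctctcccacgggct
Eif4g1, chr16:20672722-20672746, plus strand: gctccgCCCTCTgcgccggtcacgt
Eif1ad, chr19:5366808-5366832, plus strand: cgatggCTTTTgtttctccagcggc
Eif1b, chr9:120492601-120492625, plus strand, without a tract: gggctaaatacgcggcgccggccat
Eef2, chr10:81176626-81176650, plus strand, without a tract: cgggcgttgacgtcagcggtctctt
A C followed by at least 4 pyrimidines lay within 3 bases of a start in 9 of 49 members with a RefSeq start (18.4%, exact binomial 95% interval 8.76% to 32.0%) and in 13.4% of 17999 genes. Of 64 ribosomal protein genes 39.1% held it. These shares count matches at annotated starts, and how many tracts of transcripts the search missed was not examined. The interval of the members included the share of all genes, and a match of these letters at an annotated start is a description of the window only. A line without a tract means no match within 3 bases of the RefSeq start. The Eef2 window ends in such a match farther in. For Eef1a1 the window lies inside the GENCODE span given above, away from the upstream end of that span. Which start is used in skin was not examined for any member, so capitals may mark bases that are not transcribed.

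Between basal-like and suprabasal-like cells of WT skin the number of translation factors that rose went up with age, from 14 at E14.5 to 27 at E16.5 and 39 at P0, out of 58 tested. Here edgeR's quasi-likelihood test was run with the library as a block, and a member was called at an adjusted p under 0.05 over all 12243 genes tested. At E14.5 14 members rose and 2 fell, or 27.6% called against 32.1% of all genes (16.6% higher, 15.5% lower). At E16.5 27 rose and 11 fell, or 65.5% against 55% (27.7% higher, 27.3% lower). At P0 39 rose and 4 fell, or 74.1% against 64.5% (33.4% higher, 31.1% lower). The median log2 difference of the members was 0.13, 0.22 and 0.47 at the 3 ages, while that of all genes was 0.00, -0.02 and 0.00. The suprabasal-like class was not alike over the ages. Cycling clusters, those with a mean Mki67 level above 0.2 counts per 10000 UMIs (a limit set after the values were seen), held 88 of 148 and 125 of 218 WT suprabasal-like cells at E14.5, 56 of 276 and 69 of 419 at E16.5 and none at P0, while granular clusters held 8.11% and 9.63%, 8.70% and 8.11%, and 29.9% and 26.4%. With granular clusters left out 14, 30 and 39 members rose and 2, 11 and 4 fell at the 3 ages, and the part of the cycling clusters was not tested. Every called member changed in the same direction in each library of its age. The split depends on the scale: with plain library totals in place of TMM factors the median of all genes moved to -0.27 at E16.5 and -0.43 at P0, and the members called became 17 higher and 23 lower at E16.5 and 22 higher and 18 lower at P0. The levels below are TMM-scaled CPM of this fit, given as replicates 1 and 2.

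**Figure D1:**
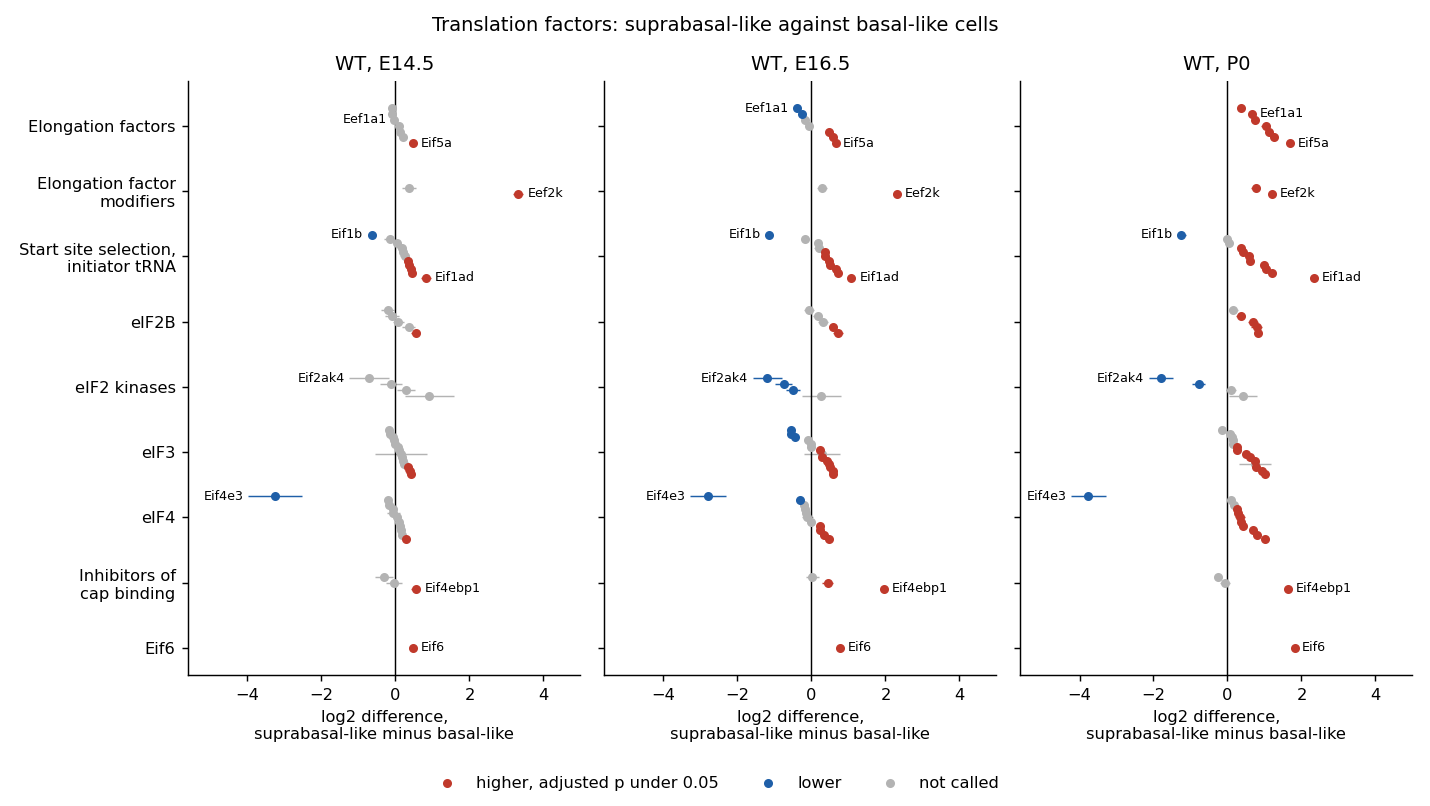
Each point is a member's log2 difference between suprabasal-like and basal-like cells of the 2 WT libraries of an age with its standard error (x axis), grouped by role (y axis). Red and blue points passed the test; at P0 all 7 elongation factors tested lie to the right of 0, whereas at E16.5 Eef1a1 lies to the left.

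The elongation factors showed the clearest turn. At P0 all 7 tested rose in suprabasal-like cells, with log2 differences from 0.37 to 1.70, whereas at E16.5 3 rose and 2 fell. Eif5a, the factor that carries hypusine, stood at 384 and 385 CPM in P0 basal-like cells and at 1280 and 1220 in suprabasal-like cells, a log2 difference of 1.70 with a standard error (SE) of 0.08 (adjusted p = 5.3e-16). At E16.5 its difference was smaller, from 1191 and 1206 to 1849 and 1933 CPM (log2 0.66). Eef1a1 had 6021 and 6848 CPM in P0 basal-like and 9906 and 10418 in suprabasal-like cells (log2 0.66, SE 0.08, adjusted p = 5.89e-08). At E16.5 it went the other way, from 6275 and 6356 to 4763 and 4805 CPM (log2 -0.40, adjusted p = 0.000119), and its libraries did not overlap at either age. The translocase gene Eef2 likewise fell at E16.5 by 0.26 and rose at P0 by 0.37 on the log2 scale, and Eef1b2, an exchange factor of eEF1A, rose at P0 by 0.75. The E16.5 call of Eef2 was lost without E16.5 WT replicate 1 or 2 (adjusted p = 0.137 and 0.119). With plain totals the P0 rise of Eef1a1 was 0.21 and still called, while the value of Eef2 at P0 was -0.08. In the P0 WT library of version 1 reagents, which had no replicate, the direction at P0 was not the same for Eef1a1 and Eef1b2. Plain CPM in its basal-like and suprabasal-like cells were 6327 and 5302 for Eef1a1 and 1225 and 1153 for Eef1b2. They were 1676 and 1232 for Eef2, where the version 2 libraries had the same sign on the plain scale (log2 -0.08), and 1539 and 2322 for Eif5a. On that plain scale the version 2 libraries had 6591 and 7226 CPM of Eef1a1 in basal-like and 7549 and 8421 in suprabasal-like cells.

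A contrast of the stage differences, added after the data were seen, tested this change between ages directly. The suprabasal-minus-basal difference was larger at P0 than at E16.5 for 27 members and smaller for 4, or 53.4% of 58 members against 24.3% of all genes (12.6% larger, 11.7% smaller). All 7 tested genes of the elongation factor group, Eef1e1 included, were among the 27, led by Eef1g at 1.20 and Eef1a1 at 1.06 on the log2 scale (adjusted p for Eef1a1 = 7.81e-08). Eif1ad differed by 1.26, Eif6 by 1.05 and Eif5a by 1.04. The members with a smaller difference at P0 were Eef2k at -1.10, Eif4ebp2 at -0.69, Eif3c at -0.38 and Eif5 at -0.37, and the calls of Eif4ebp2, Eif3c and Eif5 were lost without E16.5 WT replicate 2 (adjusted p = 0.0569, 0.445 and 0.219). With granular clusters left out the difference was larger for 25 members and smaller for 2, and the part of the cycling clusters, present in the suprabasal-like class at E16.5 and not at P0, was not tested. With DESeq2 18 members were called, without integration of the libraries 20, and without the library block 14.

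Eef2k, the kinase that halts eEF2, was a suprabasal gene from the earliest age. In E14.5 WT skin it stood at 19.6 and 18.4 CPM in basal-like cells and at 176 and 194 in suprabasal-like cells (log2 3.31, SE 0.14, adjusted p = 2.81e-16). At E16.5 it went from 45.4 and 46.8 to 227 and 232 CPM (log2 2.31), and at P0 from 84.0 and 70.0 to 176 and 180 (log2 1.21, adjusted p = 6.97e-12). The narrowing came with a higher basal level at each later age, and from E16.5 to P0 also with a lower suprabasal-like level. The libraries of the 2 classes stayed apart throughout. Eef2kmt, whose product methylates eEF2, rose at P0 with a log2 difference of 0.76 and did not pass the test at E14.5 (log2 0.36) or E16.5 (log2 0.28).

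Among the genes of start site selection 8 of 11 rose at P0 and 1 fell. Eif1ad, a relative of the scanning factor eIF1A, had the largest rise, from 29.8 and 25.7 to 132 and 147 CPM at P0 (log2 2.33, SE 0.11, adjusted p = 4.11e-16). It also rose at E16.5, from 59.0 and 64.9 to 131 and 131 CPM (log2 1.08). Eif1b went the opposite way at every age: 40.4 and 47.9 CPM in P0 basal-like cells became 16.6 and 20.7 in suprabasal-like cells (log2 -1.24, SE 0.12, adjusted p = 8.01e-10). Its close relative Eif1, the main start codon gatekeeper, rose at P0 from 926 and 1184 to 1479 and 1659 CPM (log2 0.58). Eif1b made up 4.18% and 3.89% of the UMIs of both genes in P0 WT basal-like cells and 1.11% and 1.23% in suprabasal-like cells. For eIF2 itself, which brings the initiator tRNA, Eif2s1 rose at P0 by 1.22 and Eif2s2 by 0.37 (-0.08 with plain library totals), and 4 of the 5 eIF2B genes, whose products recharge eIF2, rose as well.

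The eIF3 scaffold moved less and in parts. At P0 8 of 14 genes rose, from 0.24 for Eif3m to 1.004 for Eif3b, and none fell. These calls are on the TMM scale. On the plain scale Eif3c, Eif3e, Eif3f, Eif3h and Eif3m had their lowest median of the P0 WT classes in suprabasal-like cells. There the rise of Eif3m was not seen. At E16.5 7 rose and 3 fell, and the 3 that fell were Eif3e and Eif3f, each by 0.55, and Eif3h by 0.45 on the log2 scale. Eif3e, whose product touches the cap-binding complex, stood at 597 and 642 CPM in E16.5 basal-like cells and at 409 and 439 in suprabasal-like cells (adjusted p = 1.3e-06). At P0 it had 488 and 521 against 452 and 461 CPM and did not pass the test (log2 -0.14, adjusted p = 0.103).

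Of the 11 eIF4 genes tested, 8 rose at P0 and 1 fell. The cap-binding gene Eif4e went from 41.3 and 44.8 to 89.0 and 85.3 CPM (log2 1.02, SE 0.10, adjusted p = 7.03e-10). The helicase gene Eif4a1 went from 449 and 482 to 713 and 786 CPM (log2 0.69), and Eif4a2 from 86.5 and 102 to 102 and 144 (log2 0.37). Eif4g2, which drives initiation without cap binding by eIF4E, rose by 0.41. With plain library totals the P0 values of Eif4a2 and Eif4g2 turned to -0.08 and -0.04. The counts of rises and falls are on the TMM scale. On the plain scale Eif4a3, Eif4e2, Eif4g3 and Eif4h also had their lowest median of the P0 WT classes in suprabasal-like cells. The single fall belonged to Eif4e3, a minor cap-binding gene, which had 7.08 and 6.41 CPM in basal-like and 0.60 and 0.38 in suprabasal-like cells at P0 (log2 -3.76, SE 0.46, adjusted p = 8.84e-08). It was also the deepest fall at E14.5 (log2 -3.25) and E16.5 (log2 -2.79). Eif4ebp1, the mTOR-controlled inhibitor of eIF4E, rose together with its target, from 52.4 and 56.9 to 180 and 162 CPM at P0 (log2 1.64, adjusted p = 2.71e-14) and from 105 and 134 to 432 and 497 at E16.5 (log2 1.96). Eif4ebp2 had 41.8 and 48.5 against 33.5 and 42.2 CPM at P0 and did not pass the test (log2 -0.25, adjusted p = 0.0548).

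The eIF2 kinases were the group that did not rise. None of the 4 was higher in suprabasal-like cells by the test at any age, and 3 fell at E16.5 and 2 at P0. Eif2ak4, the sensor of uncharged tRNA, fell from 7.49 and 7.98 to 2.39 and 2.05 CPM at P0 (log2 -1.81). Eif2ak2, the sensor of double-stranded RNA and an interferon-induced gene, fell from 15.2 and 17.1 to 11.2 and 8.08 (log2 -0.78, adjusted p = 0.000595), and this call was lost without P0 WT replicate 2 (log2 -0.44, adjusted p = 0.106). Without E16.5 WT replicate 2 the E16.5 calls of Eif2ak2 and Eif2ak4 were lost as well (adjusted p = 0.169 and 0.644). Eif2ak3, the sensor of unfolded protein, stayed at 2.71 to 4.19 CPM in both classes at P0. Eif6, which keeps the large ribosomal subunit from joining too early, was the strongest P0 call among all members by p: 171 and 197 CPM in basal-like cells and 592 and 708 in suprabasal-like cells (log2 1.82, SE 0.08, adjusted p = 1.06e-16). At E14.5 and E16.5 its difference was 0.47 and 0.77.

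Other genes of the translation apparatus moved in the same cells. Of 22 cytosolic aminoacyl-tRNA synthetases 18 rose at P0 and none fell, with a median log2 difference of 0.59. Of the 12 genes of recycling, termination and poly(A) binding that were tested 9 rose and 3 fell, of the 2 hypusine synthesis genes 1 rose, of 17 translation control genes 7 rose and 2 fell, and of 12 integrated stress response genes 6 rose and 5 fell. Over the same step 27 of 30 cell cycle genes fell and none rose. Their part in the results on members was not tested.

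**Figure D2:**
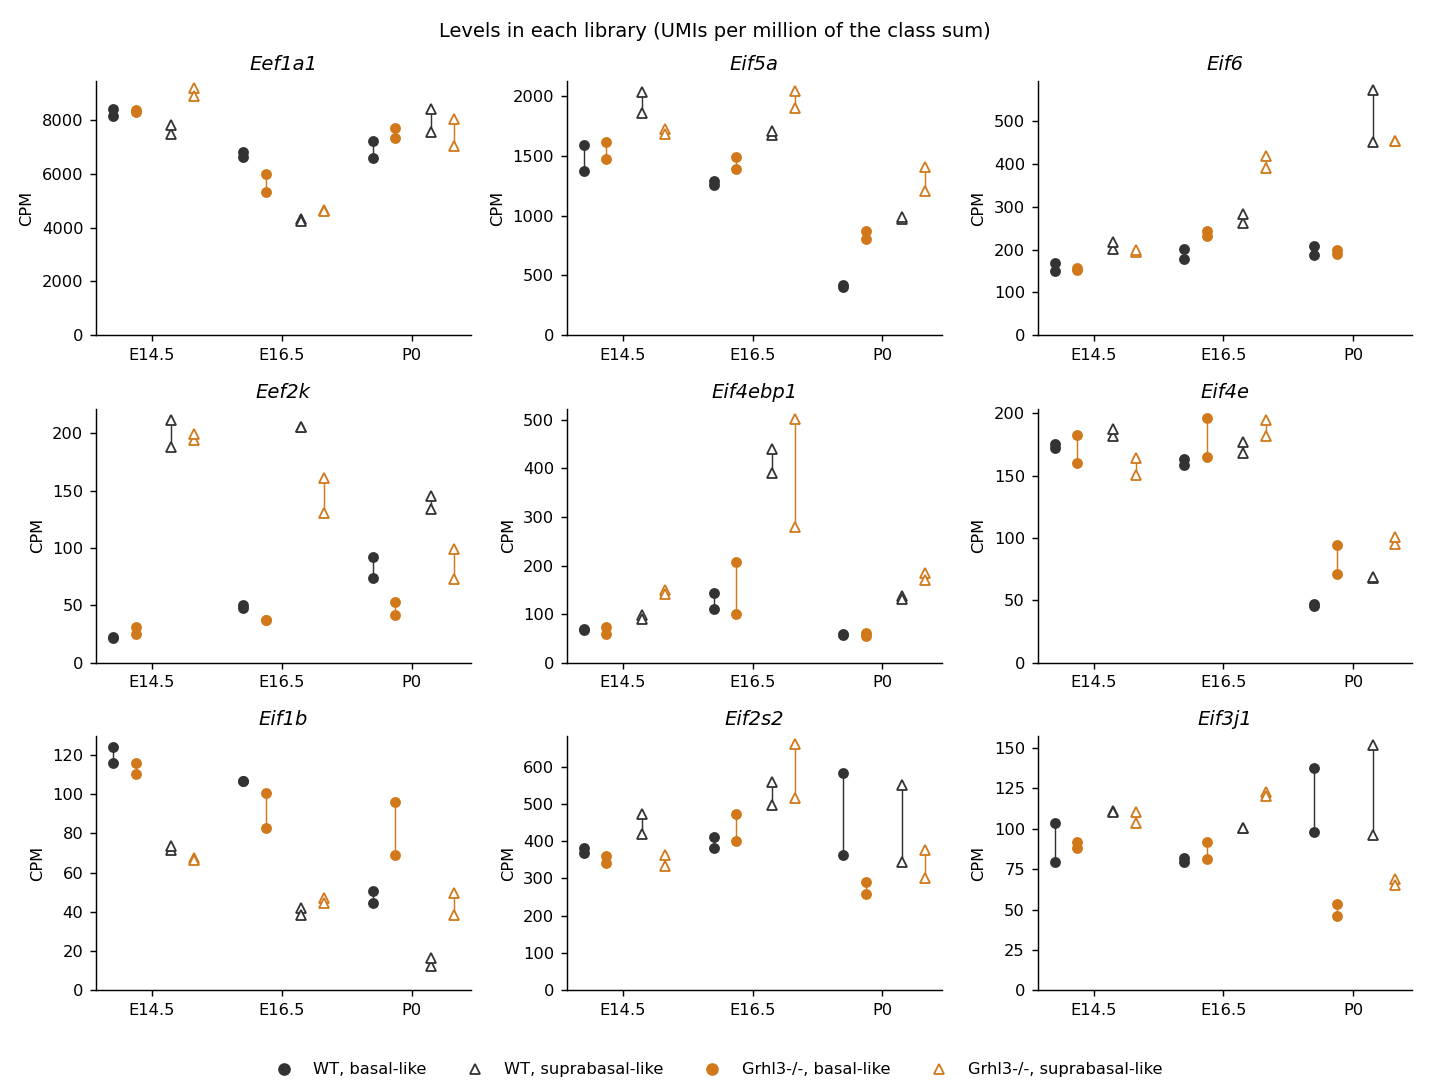
Each symbol is the level of a member in a library, in CPM of the plain class sum (y axis), for basal-like (filled circles) and suprabasal-like (open triangles) cells of WT (dark) and Grhl3-/- (orange) skin at the 3 ages; lines join the 2 libraries of a group. At P0 both Grhl3-/- libraries have more Eif5a and less Eif3j1 than both WT libraries in basal-like cells.

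Along a finer order the members changed at different places. Interfollicular cells of each library were ranked by suprabasal minus basal marker levels and cut into 10 bins of equal cell number, and plain CPM were taken per bin with no test. The summed members changed little from the first to the last bin at P0 in WT, by 1.06 and 1.04 times, and had their highest levels in bins 6 and 5, at 24342 and 26136 CPM. At E16.5 they ended lower than they began, at 17800 against 24461 CPM in replicate 1 and 17554 against 24865 in replicate 2. Eef1a1 accounted for much of that shape: it ended at 0.458 and 0.436 times its first bin at E16.5 but at 1.05 and 1.02 times at P0. Eif5a rose steadily at P0 from 350 and 391 CPM to 1072 and 1073. Eif6 rose and then declined, with its highest levels of 522 CPM in bin 7 and 643 CPM in bin 8. Eef2k was highest in bin 6 of both P0 WT libraries, at 170 and 179 CPM, and in bin 9 of both E16.5 WT libraries, at 238 and 247 CPM.

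**Figure D3:**
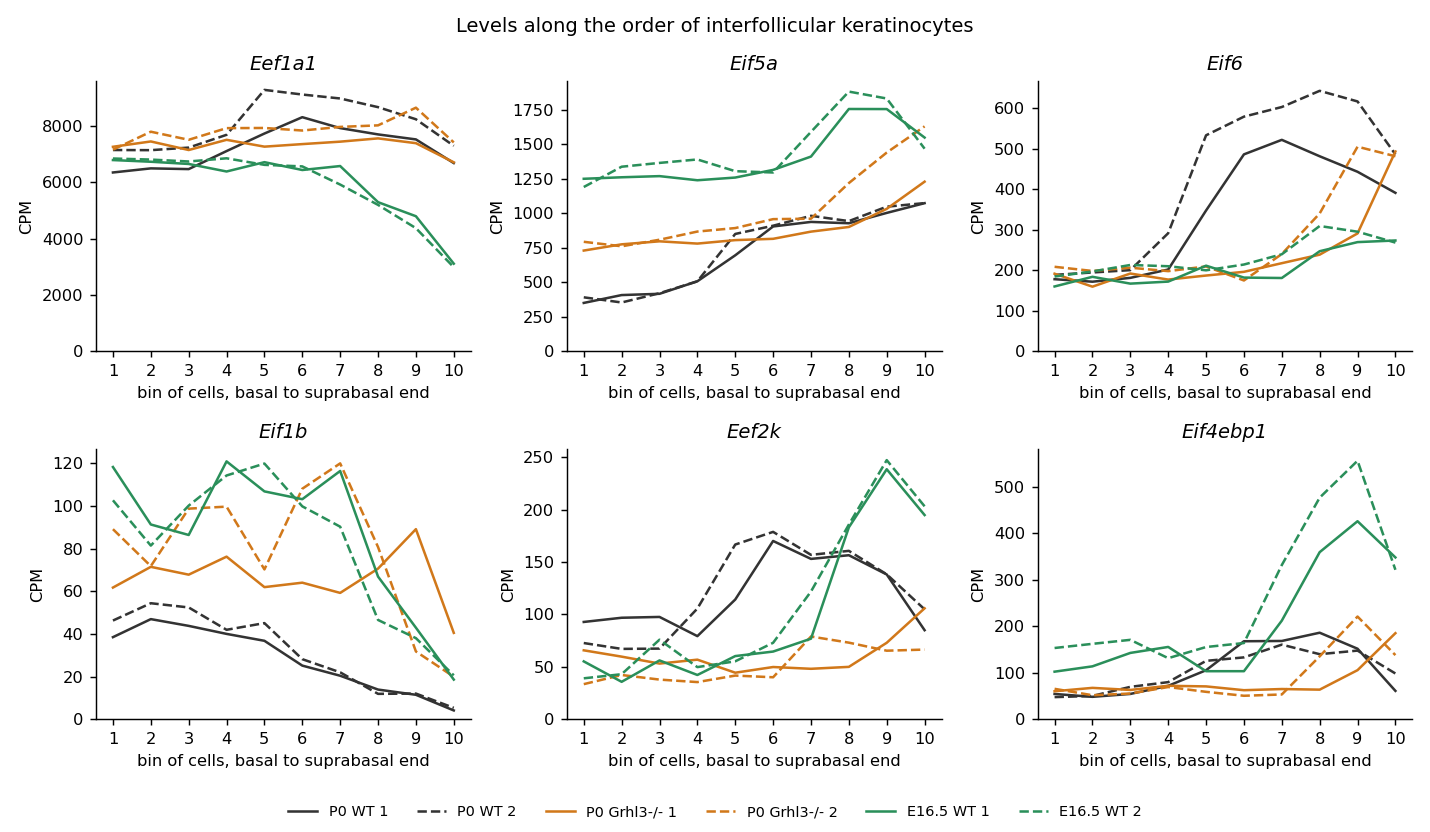
Level in CPM (y axis) of 6 members in 10 bins of interfollicular cells ordered from the basal to the suprabasal end (x axis), for 2 P0 WT (dark), 2 P0 Grhl3-/- (orange) and 2 E16.5 WT libraries (green). Eif6 turned up near bin 5 in P0 WT and near bins 8 to 10 in P0 Grhl3-/-.

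Between E14.5 and E16.5 few members changed in WT basal-like cells: 2 rose and 3 fell, or 8.47% of 59 members against 16.1% of all genes (8.65% higher, 7.46% lower). Eef2k went from 21.9 and 20.5 to 50 and 51.6 CPM (log2 1.27, adjusted p = 0.000198) and Eif4ebp1 from 68.4 and 65.1 to 116 and 147 (log2 0.98, adjusted p = 0.00892). Eif3l fell by 0.53, Eif4a2 by 0.41 and Eif3m by 0.35. The call of Eef2k held with every library left out in turn. Those of Eif4ebp1 and Eif3l were lost in 2 of 21 alternatives, without E14.5 WT replicate 2 (adjusted p = 0.104 and 0.0697) and without E16.5 WT replicate 2 (adjusted p = 0.0768 and 0.0587). That of Eif4a2 was lost in 6, among them without E14.5 WT replicate 2 (adjusted p = 0.374) and without either E16.5 WT library (0.129 and 0.174). That of Eif3m was lost in 14, of which 10 left out 1 library, namely any 1 of the E14.5 and E16.5 libraries or of the P0 Grhl3-/- libraries, with adjusted p up to 0.406. In suprabasal-like cells 4 rose and 5 fell, or 16.1% of 56 members against 20.5% of all genes (11.4% higher, 9.07% lower). Eif4ebp1 rose from 87.1 and 77.2 to 404 and 464 CPM (log2 2.40, SE 0.25, adjusted p = 7.93e-05), and Eif6, Eif2b4 and the cap scaffold gene Eif4g1 by 0.65, 0.82 and 0.50. Eef1a1 fell from 6598 and 6654 to 4458 and 4479 CPM (log2 -0.57, adjusted p = 0.012), beside Eif1b, Eif3l, Eif4b and Eif3e, which fell by 0.41 to 0.59. Of these 9 calls only that of Eif4ebp1 held with every library left out in turn, and with plain totals 1 member rose and 17 fell. Both E16.5 WT libraries were female in pattern while E14.5 WT held a library of each sex, and the part of sex in these differences was not tested. Over the same step in basal-like cells 9 of 18 dissociation stress genes rose and none fell (median 0.60), 11 of 30 cell cycle genes rose and 1 fell, and 4 of 11 integrated stress response genes tested rose. Cycling clusters held 88 of 148 and 125 of 218 suprabasal-like cells at E14.5 against 56 of 276 and 69 of 419 at E16.5, and 65 of 135 and 111 of 214 against 364 of 604 and 394 of 723 basal-like cells. In suprabasal-like cells 26 of 30 cell cycle genes fell (median -1.19), 6 of 12 integrated stress response genes rose and 1 fell, and 9 of 22 aminoacyl-tRNA synthetases rose. Their part in the differences of the members was not tested.

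Between E16.5 and P0 more members fell than rose in WT basal-like cells: 26 fell and 10 rose, or 61% of 59 members against 60.4% of all genes (31.1% higher, 29.2% lower), with a median log2 change of -0.16 for the members and 0.03 for all genes. The share called was near the background, and Eef1a1 did not pass the test. Both E16.5 WT libraries were female and both P0 WT libraries male in pattern, so that sex and age cannot be told apart here. The class held different clusters at the 2 ages: cycling clusters held 60.3% and 54.5% of basal-like cells at E16.5 and 50.6% and 50.3% at P0, where 24.7% and 28.1% of the class lay in 1 of these, led by Igf2, and their part in these differences was not tested. The eIF4 group held 7 of the falls and no rise. Eif4e went from 165 and 168 CPM to 46.7 and 50.5 (log2 -1.78, SE 0.13, adjusted p = 6.66e-09) and Eif4a1 from 1225 and 1236 to 508 and 544 (log2 -1.23, adjusted p = 6.99e-08). Eef1e1, a scaffold protein of the aminoacyl-tRNA synthetase complex, had the deepest fall, from 95.7 and 98.8 to 21.3 and 28.8 CPM (log2 -1.96). Eif5a fell from 1311 and 1330 to 435 and 434 CPM (log2 -1.60, adjusted p = 3.4e-09). In the P0 WT library of version 1 reagents, however, Eif5a stood at 1539 CPM, Eif4e at 111 and Eif6 at 372 in basal-like cells, against 421 and 406, 45.2 and 47.2, and 187 and 208 plain CPM in the version 2 libraries of that group. Library chemistry and animal cannot be told apart in that comparison.

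Of the 10 members that rose in P0 basal-like cells, 2 encode proteins that bind eIF4E (Eif4ebp2 and Eif4enif1, the latter by 0.44), 3 encode eIF2 kinases and 1 was Eef2k. Eif4ebp2 went from 16.7 and 15.9 to 47.3 and 54.7 CPM (log2 1.65, SE 0.16, adjusted p = 1.99e-07) while Eif4ebp1 fell from 116 and 147 to 59.4 and 64.2 (log2 -1.09), so that the share of Eif4ebp2 among the UMIs of both went from 12.6% and 9.76% to 44.4% and 46.0%. In the version 1 P0 WT library Eif4ebp2 stood at 9.94 plain CPM in basal-like cells, against 45.8 and 51.1 in the version 2 libraries. Eef2k rose by 0.78, and the kinase genes Eif2ak1, Eif2ak4 and Eif2ak2 by 0.94, 0.80 and 0.58. The call of Eif2ak4 (adjusted p = 0.0463) was lost in 10 of 21 alternatives, with values from 0.26 to 1.09. The 7 of these that left out 1 library were those without any 1 of the E16.5 and P0 WT and E14.5 Grhl3-/- libraries or without E14.5 WT replicate 1. The call of Eif2ak2 was lost in 5 of 21 (0.48 to 0.71), 3 of them without P0 WT replicate 2 (adjusted p = 0.114) or either E16.5 WT library. Eef1a1, with 6906 and 7004 CPM at E16.5 and 6816 and 7729 at P0, did not pass the test (log2 0.06). In suprabasal-like cells 15 members rose and 14 fell, or 51.8% of 56 against 44.9% of all genes (21.5% higher, 23.4% lower). There Eef1a1 rose from 4458 and 4479 to 9189 and 9615 CPM (log2 1.07, SE 0.14, adjusted p = 0.000113), Eef1b2 by 1.04 and Eef2 by 0.72, while Eif6 rose from 270 and 298 to 549 and 654 (log2 1.08). Eif4ebp1 and Eef1e1 each fell by 1.46 and Eif4e by 1.16. On the plain scale the version 1 P0 WT library, at 5302 CPM of Eef1a1, 1153 of Eef1b2 and 1232 of Eef2, lay between the E16.5 WT libraries (4320 and 4255, 1014 and 1014, 1004 and 1008) and the version 2 P0 WT libraries (7549 and 8421, 1770 and 1923, 1319 and 1627). With plain totals 8 members rose and 21 fell. The suprabasal-like class did not hold the same clusters at both ages: granular clusters gave 8.70% and 8.11% of it in the E16.5 WT libraries and 29.9% and 26.4% in the P0 WT libraries. A cluster led by cell cycle genes such as Pbk and Foxm1 gave 56 of its 276 and 69 of its 419 cells in the E16.5 WT libraries, and no suprabasal-like cluster of the P0 libraries was led by such genes. With granular clusters left out 15 members rose and 15 fell, with Eef1a1 at a log2 difference of 1.01 and Eif6 at 1.02, while the part of the cycling cluster was not tested. Over the same step 25 of 30 cell cycle genes fell in basal-like and all 30 in suprabasal-like cells, and 16 of 22 aminoacyl-tRNA synthetases fell in each class. In basal-like cells 3 of 8 interferon response genes tested rose and none fell, and 12 of 17 translation control genes rose and 2 fell. The part of these lists in the differences of the members was not tested.

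Between Grhl3-/- and WT libraries members were called at P0 in both classes and at neither embryonic age in the fit of 12 libraries. In suprabasal-like cells this order depended on the fit: fits of the 4 libraries of an age called 8 of 55 members at E14.5 (10.2% of all genes), 0 of 54 at E16.5 (5.34%) and 3 of 56 at P0 (8.91%). In basal-like cells such fits called 0 of 56 (0.14% of all genes), 1 of 56 (1.09%) and 18 of 58 (31.1%). In basal-like cells at P0 13 members rose and 9 fell, or 37.3% of 59 against 39.4% of all genes (19% higher, 20.4% lower), so the share called was near the background. The basal-like class differed in make-up between the genotypes at P0. A cluster led by Igf2, Ucn2, Tppp and H19 gave 24.7% and 28.1% of it in the WT and 14.0% and 5.98% in the Grhl3-/- libraries. A cluster led by the cell cycle genes Ccnb2 and Cdkn3 gave 7.48% and 6.89% against 10.7% and 16.7%. A cycling cluster led by Esco2 and Clspn gave 18.4% and 15.3% against 20.7% and 22.3%. All cycling clusters, the one led by Igf2 among them, held 50.57% and 50.26% against 45.53% and 44.95%. Only the Igf2 cluster made this total lower in Grhl3-/-. Each other cycling cluster held a larger share of the class in both Grhl3-/- libraries than in either WT library. The part of these clusters in the differences below was not tested. The median log2 difference was 0.05 for the members and -0.02 for all genes. The WT and Grhl3-/- libraries did not overlap for any called member. The comparisons of age and of genotype share the P0 WT libraries, so their values are given side by side only. Eif5a had 435 and 434 CPM in WT and 853 and 845 in Grhl3-/- (log2 0.97, SE 0.11, adjusted p = 4.83e-06), against 1311 and 1330 in E16.5 WT. Eif4e had 46.7 and 50.5 against 75.8 and 92.1 CPM (log2 0.78, adjusted p = 0.000189). Eif2s1 had 49.5 and 53.4 against 81.3 and 88.5 (log2 0.72), and Eef1e1 had 21.3 and 28.8 against 41.1 and 46.3 (log2 0.79). Eif1b was higher by 0.72, the X-linked Eif1ax by 0.68 and Eif2b3 by 0.69. Smaller rises were those of Eef1d by 0.51, Eif4a3 by 0.46, Eif4a2 by 0.45, Eif4h by 0.37, Eef1g by 0.32 and Eif4a1 by 0.29, of which that of Eif4a2 was lost without P0 WT replicate 1 (log2 0.33, adjusted p = 0.069). The rise of Eif4a1 was near the threshold (adjusted p = 0.0439) and lost when any of 11 libraries was left out, with adjusted p up to 0.147.

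Of the 9 members that fell in P0 Grhl3-/- basal-like cells, 3 belong to start site selection and initiator tRNA delivery, where 3 others rose, and no other family had more than 1. Eif3j1, which lets eIF3 bind and leave the small subunit, had the deepest fall, from 143 and 105 CPM in WT to 56.3 and 44.6 (log2 -1.28, SE 0.16, adjusted p = 9.32e-06). Eif3j1 has a near-identical copy, Eif3j2, so reads that fit both could not be told apart in counting, and its level is uncertain. Eif2b4 had 43.8 and 35.9 against 18.5 and 21.8 CPM (log2 -1.01) and Eif4ebp2 had 47.3 and 54.7 against 30.1 and 25.6 (log2 -0.85). Eef2k had 95.1 and 79.0 against 56.0 and 40.7 (log2 -0.82, adjusted p = 0.000288). Eif2s2 had 603 and 388 against 272 and 281 (log2 -0.84, adjusted p = 0.000506), where WT replicate 1 stood well above the other 3 libraries. In T cell-like cells WT replicate 1 was also the highest, with plain CPM of 538 and 286 in WT and 284 and 312 in Grhl3-/-. Eif5b, Eif5 and Eif2ak1 fell by 0.75, 0.74 and 0.63 and Eif4g2 by 0.36. For Eif5b too WT replicate 1 was the highest in T cell-like cells, with plain CPM of 329 and 194 in WT and 171 and 165 in Grhl3-/-. It was also the highest in sebaceous-like cells (438.5 and 233 against 194 and 193) but not in Merkel-like cells (258 and 279 in WT). The call of Eif4g2 was lost after thinning to the smallest sum (log2 -0.19, adjusted p = 0.28) and in the fit of the 4 P0 libraries (log2 -0.33, adjusted p = 0.115). Eef1a1 (6816 and 7729 against 7794 and 7498 CPM, log2 0.07, adjusted p = 0.604), Eef2 (log2 -0.21), Eif1 (log2 -0.03), Eif3e (log2 0.02), Eif4ebp1 (log2 -0.05) and Eif6 (log2 -0.07) did not pass the test.

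Other gene lists moved in the same basal-like cells. Of 30 cell cycle genes 25 rose and none fell, with a median of 0.75, and of 22 aminoacyl-tRNA synthetases 7 rose and 3 fell. Of 17 translation control genes, which include mTOR pathway members, 1 rose and 9 fell with a median of -0.55. Of 11 integrated stress response genes tested 3 rose and 1 fell. Of 12 genes of recycling, termination and poly(A) binding tested 1 rose and 2 fell, and neither hypusine synthesis gene was called. Hair follicle markers summed to 1127 and 1158 CPM in the P0 WT and 2096 and 2874 CPM in the P0 Grhl3-/- basal-like sums. Their part in the differences of the members was not tested. The version 1 P0 WT library, with 3660 CPM of hair follicle markers, had 1539 plain CPM of Eif5a, above both Grhl3-/- libraries (805 and 870), 29.3 of Eif3j1, below both (53.1 and 45.9), and 9.94 of Eif4ebp2, below both (28.4 and 26.3). Its Eif1b stood at 55.0 plain CPM, between the version 2 WT (44.3 and 50.5) and Grhl3-/- libraries (69.1 and 95.9). Other classes at P0 were read in plain CPM with no test. In T cell-like cells Eif5a had 987 and 1025 in WT and 1389 and 1363 in Grhl3-/-. In sebaceous-like cells it had 600 and 611 against 1099 and 1203. Eif3j1 had 113 and 46.5 against 39.1 and 34.1 in T cell-like cells, and 250 and 153 against 106 and 73.6 in sebaceous-like cells. Eif1b in T cell-like cells went the other way, at 138 and 144 against 130 and 112. Whether these shifts are particular to interfollicular cells was not tested.

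In suprabasal-like cells at P0 8 members rose and 8 fell, or 28.6% of 56 against 27.6% of all genes (14.3% higher, 13.3% lower), with medians of 0.01 for both. The class itself was not alike: basal markers summed to 2862 and 3403 CPM in it in WT and to 25180 and 8579 in Grhl3-/-, and granular markers to 5284 and 4847 against 66.1 and 1063. Granular clusters held 43.5% of the class in Grhl3-/- replicate 2, above the 29.9% and 26.4% of WT, although its granular markers were lower. Their part in the differences of the members was not tested. Eif1b, which is higher in basal-like cells of WT skin, had the largest rise, from 15.4 and 19.1 CPM in WT to 52.8 and 46.9 in Grhl3-/- (log2 1.53, SE 0.17, adjusted p = 0.000172), and made up 3.88% and 3.00% of the UMIs of Eif1 and Eif1b against 1.11% and 1.23%. Eif2ak2 had 10.4 and 7.46 against 27.2 and 16.3 CPM (log2 1.35, adjusted p = 0.00417). This call was lost without P0 Grhl3-/- replicate 1 (log2 0.88, adjusted p = 0.0779), the library with the higher sum of interferon response genes, 199 CPM against 107 in the other Grhl3-/- library and 46.1 and 31.4 in WT. Eif1ad had 123 and 136 against 40.2 and 70.0 CPM (log2 -1.26, SE 0.23, adjusted p = 0.00246). Eef2k had 163 and 166 against 106 and 89.1 (log2 -0.75, adjusted p = 0.00444) and Eif4g1 150 and 157 against 104 and 89.1 (log2 -0.66, adjusted p = 0.0084). Eif3j1 fell by 0.95, Eif2ak1 by 0.82, Eif5 by 0.61, Eif4g2 by 0.55 and Eif3b by 0.50, while Eef1e1, Eif4a3, Eif2s1, Eif4e and Eif1ax rose by 0.43 to 0.73. Eif5a (1187 and 1126 against 1278 and 1717 CPM, log2 0.37, adjusted p = 0.0866) and Eif6 (549 and 654 against 480 and 554, log2 -0.22) did not pass.

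Several of these suprabasal calls rested on a library. Eif4a2, at 94.4 and 133 against 138 and 252 CPM (log2 0.77, adjusted p = 0.0496), was at 0.26 on the log2 scale without P0 Grhl3-/- replicate 2 and lost its call when any of 10 libraries was left out, and Eif4a3 was lost without P0 WT replicate 2 (adjusted p = 0.0791). Eif4e was lost when any of 9 libraries was left out, with the highest adjusted p of 0.111 without P0 Grhl3-/- replicate 2, and Eif2ak1 when any of 5 was, with 0.133 without P0 WT replicate 2 and 0.128 without P0 Grhl3-/- replicate 2. With granular clusters left out of the class 6 members rose and 11 fell, and with a fit of the 4 P0 libraries alone 3 members were called. Of 12 named calls, those of Eif1b and Eif1ad held under every alternative that gave a value. Clustering without integration gave none, because it left 4 and 5 suprabasal-like cells in the P0 Grhl3-/- libraries, against 281 and 207 with integration. The comparison of genotypes in this class at P0 therefore rests on integrated clusters. Along the order of cells, Eif1b ended at 4.10 and 5.32 CPM in the last bin of the P0 WT libraries and at 40.5 and 19.9 in the Grhl3-/- libraries. Eif6 stood at 486 and 579 CPM in bin 6 of WT and at 196 and 175 in bin 6 of Grhl3-/-, whereas its highest levels in Grhl3-/- were 493 in bin 10 and 505 in bin 9. Bins are set within a library and did not hold the same stages: of the cells in bin 6, 99.0% and 100% were suprabasal-like in P0 WT but 2.99% and 4.35% in P0 Grhl3-/-. Of 30 cell cycle genes 7 rose and none fell, of 9 stress keratin and small proline-rich genes 4 rose and of 17 translation control genes 6 fell.

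**Figure D4:**
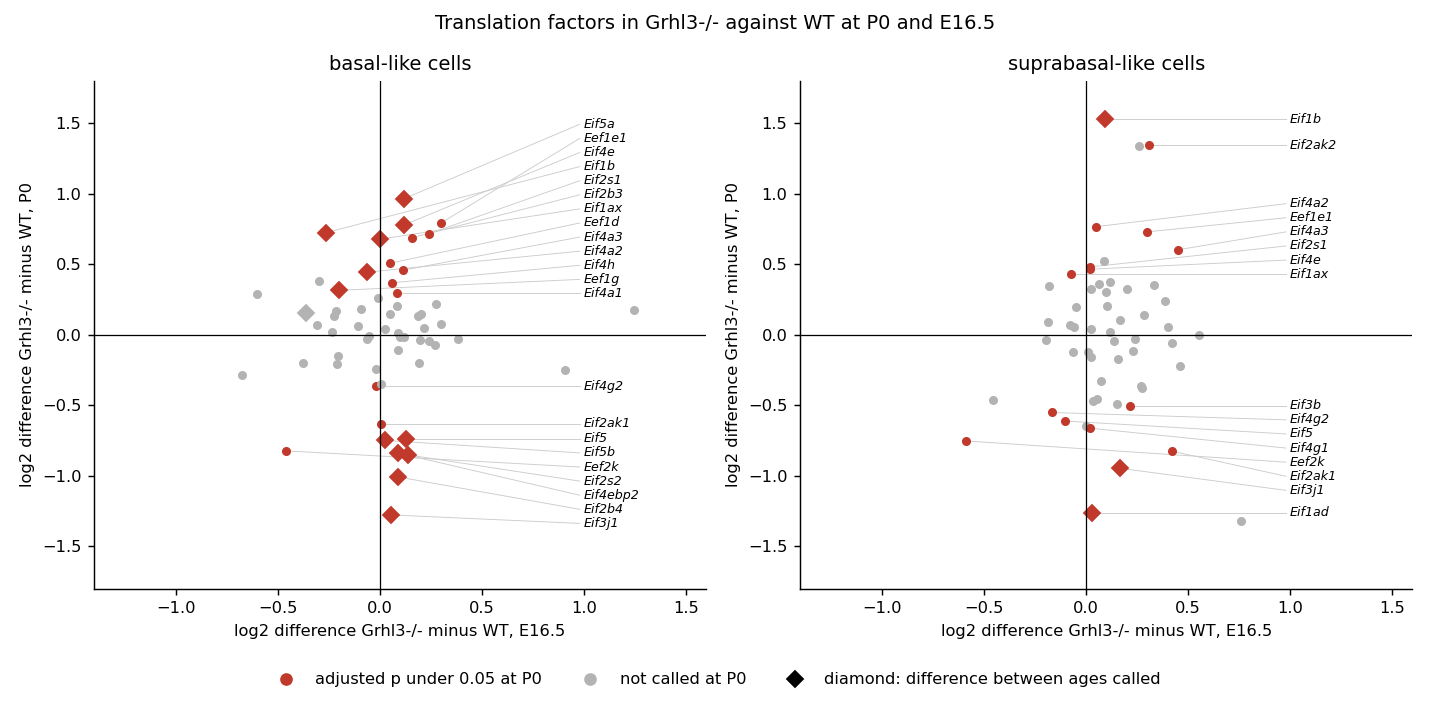
Log2 difference between Grhl3-/- and WT for each member at E16.5 (x axis) and at P0 (y axis) in basal-like (left) and suprabasal-like (right) cells. Red points passed the test at P0 and are named, and diamonds mark members whose difference between the ages passed its own test, 13 in basal-like and 3 in suprabasal-like cells.

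At the earlier ages no member was called in either class by edgeR's quasi-likelihood test in the fit of 12 libraries. In suprabasal-like cells the fit of the 4 E14.5 libraries alone called 8 members, 4 higher and 4 lower, and with granular clusters left out 1 of 56 was called at each embryonic age, where 2.16% of all genes were called at E14.5 and 1.62% at E16.5. Without the low-count filter 2 of 59 were called at E14.5 (2.82% of all genes) and 1 at E16.5 (4.88%) in suprabasal-like cells, and 1 of 60 at E16.5 in basal-like cells (1.22%). In basal-like cells at E14.5 1 of 59 members had an unadjusted p under 0.05 and none by DESeq2's adjusted p, where 0.00841% of all genes were called (1 gene, higher). At E16.5 11 had an unadjusted p under 0.05, none was called by DESeq2, and 0.505% of all genes were called (0.294% higher, 0.21% lower). In suprabasal-like cells 7 of 56 had an unadjusted p under 0.05 at E14.5, where 1.08% of all genes were called (0.444% higher, 0.638% lower), and 6 at E16.5, where 3.23% were called (0.713% higher, 2.52% lower). By DESeq2 0 were called at E14.5 and 1 at E16.5. The nearest was Eef2k in E16.5 suprabasal-like cells, at 212 and 216 CPM in WT and 161 and 122 in Grhl3-/- (log2 -0.59, adjusted p = 0.0609). Cycling clusters held 112 of 255 and 266 of 596 Grhl3-/- suprabasal-like cells at E14.5 and 29 of 111 and 22 of 63 at E16.5, next to the WT shares given above. Of 18 dissociation stress genes 7 fell in E16.5 Grhl3-/- basal-like cells and 3 in suprabasal-like cells, and interferon response genes summed to 791 and 1131 CPM in E16.5 Grhl3-/- basal-like cells against 305 and 315 in WT.

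The effect of the genotype at P0 minus that at E16.5 was tested as an interaction, in which the E16.5 WT libraries were female, the E16.5 Grhl3-/- libraries of both sexes and the P0 libraries male in pattern; the part of sex was not tested. In basal-like cells it was above 0 for 7 members and below 0 for 6, or 22% of 59 members against 15.3% of all genes (9.4% above, 5.89% below). Eif1b at 0.99, Eif5a at 0.85, Eif1ax at 0.68 and Eif4e at 0.66 led on the log2 scale, and Eif3j1 at -1.33, Eif2b4 at -1.09, Eif4ebp2 at -1.0 and Eif2s2 at -0.93 on the other side. Without E16.5 Grhl3-/- replicate 2 the calls of Eif1ax, Eif4e, Eif2b4 and Eif4ebp2 were lost (adjusted p = 0.0888, 0.119, 0.0736 and 0.0888), and that of Eif2s2 without replicate 1 of that group (adjusted p = 0.0658). In suprabasal-like cells Eif1b at 1.44 was above 0 and Eif1ad at -1.29 and Eif3j1 at -1.11 were below, or 5.36% of 56 against 6.62% of all genes (4.29% above, 2.32% below). The calls of Eif1ad and Eif3j1 were lost without most of the libraries, for each with an adjusted p of 0.139 without E16.5 Grhl3-/- replicate 1.

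The embryonic WT libraries gave 11 classes of cells, basal-like and suprabasal-like keratinocytes among them. Of 59 members with a median above 1 CPM in at least 1 class, 16 had their highest median in muscle-like, 12 in suprabasal-like, 9 in melanocyte-like, 7 in Schwann-like and 4 in basal-like cells. The lowest median of 47 members fell in erythroid-like cells. CPM are shares of all UMIs of a class, so these ranks do not compare molecules per cell. The levels of neighbouring classes mostly overlapped over the 4 libraries, and the highest class stood apart from the next for 5 members: Eef2k, Eif1b, Eif2ak1, Eif2ak3 and Eif4g3. Eef2k had a median of 205 CPM (188 to 212) in suprabasal-like cells and 74.9 CPM (71.5 to 92.6) in mast-like cells, the next class. Eif2ak3 was highest in fibroblast-like cells, a secretory class, at 11.1 CPM (10.9 to 12.8).

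**Figure D5:**
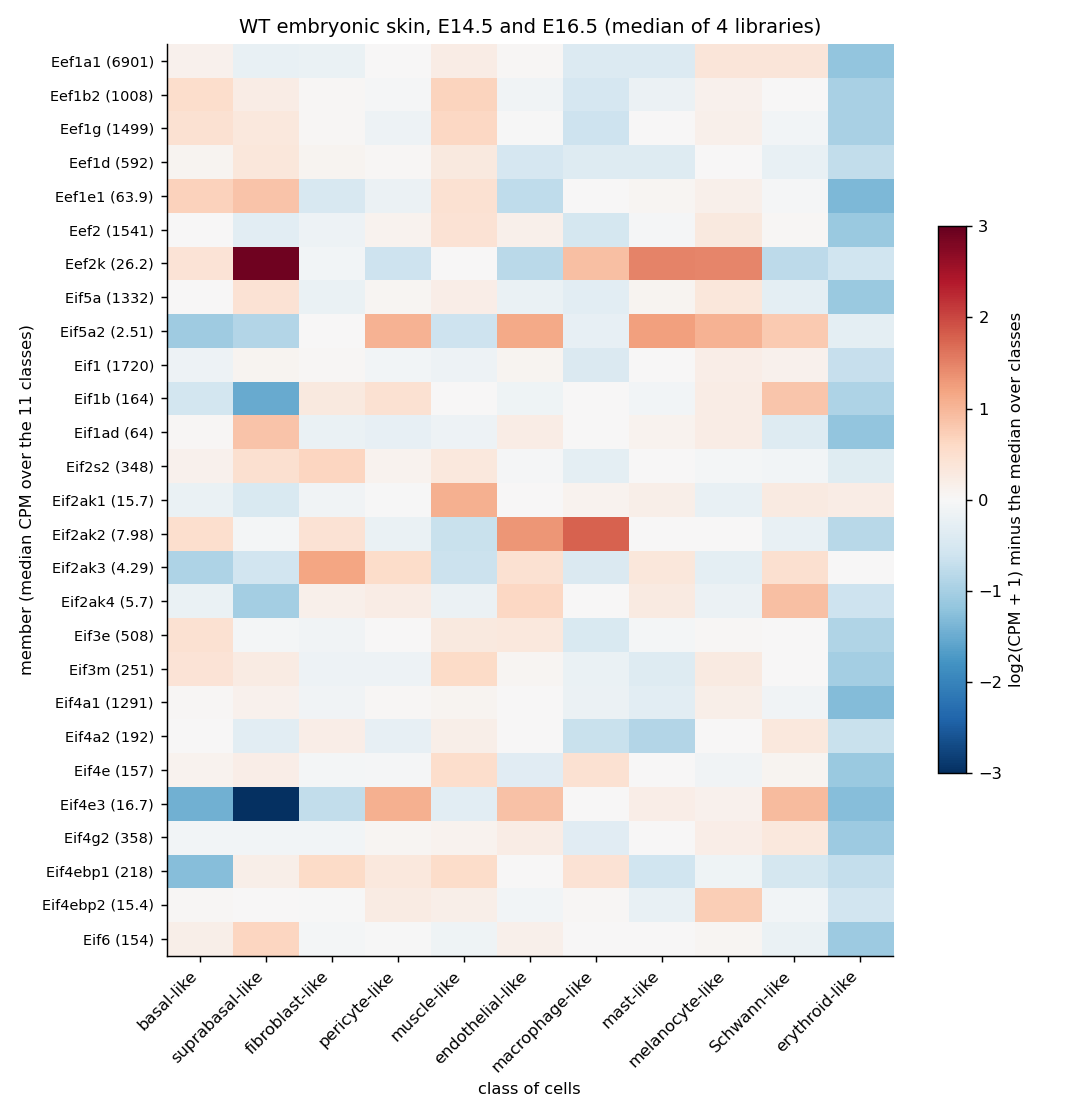
Colour gives the level of a member in a class of embryonic WT cells, as log2(CPM + 1) of the median of 4 libraries minus the median over the 11 classes; the number beside each symbol is its median CPM. Eef2k stands out in suprabasal-like cells and Eif4e3 is low there, and the erythroid-like column is low for most members.

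Against basal-like cells of the same 4 libraries, more members fell than rose in fibroblast-like, macrophage-like and endothelial-like cells, and more rose than fell in muscle-like cells. In fibroblast-like cells 7 members rose and 29 fell, or 62.1% of 58 against 54.9% of all genes (28.4% higher, 26.5% lower), with a median log2 difference of -0.29 for the members and 0.02 for all genes. In macrophage-like cells 6 rose and 28 fell, or 58.6% against 60.1% (29.4% higher, 30.7% lower), with medians of -0.28 and -0.03. In endothelial-like cells 9 rose and 19 fell, or 48.3% against 53.9% (27.5% higher, 26.4% lower), with medians of -0.17 and -0.02. In muscle-like cells 14 rose and 3 fell, or 29.3% against 42.9% (19.8% higher, 23.1% lower), with medians of 0.12 and -0.04. The eIF3 complex accounted for 11 of the falls in fibroblast-like and in macrophage-like cells and 7 in endothelial-like cells, with none of its genes higher there, while 3 of its genes rose in muscle-like cells.

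Eif4ebp1 rose in all 4 classes, from 64.2, 62.0, 114 and 145 CPM in basal-like cells (E14.5 replicates 1 and 2, E16.5 replicates 1 and 2) to 268, 262, 367 and 414 in muscle-like cells (log2 1.83, SE 0.26, adjusted p = 1.66e-07). Eif4e3, at 3.97 to 6.02 CPM in basal-like cells, stood at 25.8, 24.7, 35.9 and 33.1 in endothelial-like cells (log2 2.49, adjusted p = 2.22e-12). Eif2ak3 went from 3.97, 0.75, 1.84 and 1.81 CPM to 9.88, 9.28, 10.3 and 11.8 in fibroblast-like cells (log2 2.47, SE 0.33, adjusted p = 4e-08). Each of these pairs was apart in all 4 libraries. Eif2ak2 rose in macrophage-like cells, from 9.26, 12.4, 11.1 and 12.97 to 27.0, 25.5, 36.7 and 35.3 CPM (log2 1.43, adjusted p = 1.52e-07), and fell in muscle-like cells by 1.21, where Eif2ak1 rose by 1.25. Eif5a2, the second eIF5A gene, was at 0 to 1.06 CPM in basal-like and 5.55 to 6.84 in endothelial-like cells (log2 3.07, SE 0.49, adjusted p = 1.44e-06). Of 8 elongation factors tested 6 fell in macrophage-like cells and 1, Eif5a2, rose by 1.41. Eef1b2 was among those that fell, with 763, 728, 714 and 659 CPM against 1384, 1415, 1366 and 1428 (log2 -0.97), while Eef1g fell by 1.04, Eef2 by 0.45 and Eef1a1 by 0.45. Eef1e1 fell in fibroblast-like, endothelial-like and macrophage-like cells by 1.33, 1.56 and 0.69, and Eef2 rose in muscle-like cells by 0.43.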

How the data were processed

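The deposited matrices hold UMI counts per gene and cell, which the authors made with 10x Genomics 3′ libraries; the submitters' processing notes name Cell Ranger 1.3.1, Seurat and mm10. Cells were kept with up to 10% of UMIs from mitochondrial genes and with 600 to 4800 genes before birth or 900 to 7700 genes at P0. The 63 genes were left out of clustering (Seurat 5.3.0, canonical correlation per age, 3000 variable genes, 30 components, 20 neighbours, resolution 1 for all cells and 0.8 for interfollicular cells). Doublets were kept; leaving out the highest Scrublet scores was an alternative. Counts were summed per library and class of at least 20 cells and tested over all genes in edgeR 4.0.16 (R 4.3.3) with TMM factors and Benjamini-Hochberg adjustment at 0.05: 12 libraries per class for genotype and age, 6 WT libraries blocked by library for stage, 4 embryonic WT libraries for 11 cell types. TMM is set in each fit, so CPM of a library differ between fits. Members not tested were 4 in basal-like fits, 7 in suprabasal-like fits and 5 in the others. DESeq2 1.42.0 was an alternative. On simulated counts for genotype in basal-like cells at P0 (11508 genes) 28 of 67 genes changed 1.5-fold, 63 of 67 changed 2-fold and 66 of 66 changed 4-fold were recovered.

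Named genes were a fixed set of well-known factors plus the 5 largest called changes in each direction. For genotype and age the libraries of these did not overlap, and in fits blocked by library they changed the same way in every library. Others named were chosen after their values were seen. Members and gene lists were chosen with earlier results of these data known. The list of 85 ribosomal protein genes was used as summed levels, which ran from 233638 to 349742 CPM in WT basal-like and suprabasal-like sums of version 2. Of 8 interferon response genes tested 3 fell between WT basal-like and suprabasal-like cells at P0. The labels do not say how libraries relate to litters. The methods of the study describe littermates of a shared pregnancy for both genotypes, so litter and age cannot be told apart. The p-values measure the spread between libraries, and same-numbered libraries did not deviate together. Intervals cover counting error only.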

Additional observations from a re-analysis of the deposited data

Results flagged for a closer look

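The genotype difference changed between E16.5 and P0 by the test of the difference itself for 13 members in basal-like cells. Among the named genes the change on the log2 scale was -1.33 for Eif3j1, -1.09 for Eif2b4, -1.0 for Eif4ebp2, -0.93 for Eif2s2 and -0.87 for Eif5. It was 0.51 for Eif4a2, 0.52 for Eef1g, 0.66 for Eif4e, 0.68 for Eif1ax, 0.85 for Eif5a and 0.99 for Eif1b. The remaining called members are not listed. The call of Eif4a2 was lost in most fits with a library left out, with adjusted p up to 0.184 without E16.5 Grhl3-/- replicate 2, which also ended the calls of Eef1g, Eif1ax, Eif2b4, Eif4e and Eif4ebp2 (adjusted p = 0.114, 0.0888, 0.0736, 0.119 and 0.0888). Without E16.5 Grhl3-/- replicate 1 the call of Eif2s2 was lost (adjusted p = 0.0658).

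In suprabasal-like cells the change was called for 3 members, at -1.29 for Eif1ad, -1.11 for Eif3j1 and 1.44 for Eif1b. Eif1ad and Eif3j1 lost their calls in most fits with a library left out, with adjusted p up to 0.139 without E16.5 Grhl3-/- replicate 1.

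The difference between suprabasal-like and basal-like cells of WT skin changed from E16.5 to P0 for 31 members. Among the named genes it was smaller at P0 for Eef2k (-1.10), Eif4ebp2 (-0.69), Eif3c (-0.38) and Eif5 (-0.37). It was larger for Eif3e (0.40), Eif4a1 (0.46), Eif4a2 (0.53), Eef2 (0.63), Eif4e (0.67), Eef1b2 (0.93), Eif5a (1.04), Eif6 (1.05), Eef1a1 (1.06), Eef1g (1.20) and Eif1ad (1.26). Calls of Eif3c, Eif3e, Eif4a1, Eif4a2, Eif4ebp2 and Eif5 were lost without at least 1 of the E16.5 WT libraries, with adjusted p up to 0.445 for Eif3c without replicate 2.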

How the results depend on the processing

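Of 206 named calls 122 held in every alternative; of 3568 refits of these calls 398 lost the call, 228 of them without 1 library, and 6 turned the direction. All 6 came with plain library totals: Eif4g2 (-0.0294) and Eif4a1 (-0.0255) between the stages at E16.5, and Eif2s2 (-0.0815), Eif4g2 (-0.0402), Eef2 (-0.0822) and Eif4a2 (-0.0797) at P0. Plain totals called 10 members between WT E14.5 and E16.5 in basal-like and 18 in suprabasal-like cells. Without the low-count filter 1 member was called for genotype in basal-like cells at E16.5, 1 in suprabasal-like cells at E16.5 and 2 at E14.5. DESeq2 called 1 for genotype in suprabasal-like cells at E16.5, 5 for its change between ages and 18 for the change of the stage difference from E16.5 to P0, against 31 in the reported fit, 20 without integration and 14 without the library block. With granular clusters left out the suprabasal-like counts were 1 for genotype at each embryonic age, 6 for its change between ages and 14 for E16.5 against E14.5. Thinning to the smallest sum gave 8 for genotype in suprabasal-like cells at P0, 1 for its change, 5 for E16.5 against E14.5, 18 for P0 against E16.5, and 22 fibroblast-like, 8 muscle-like, 15 endothelial-like and 22 macrophage-like calls. Fits of the 4 libraries of an age called 1 for genotype in basal-like cells at E16.5 and 8 at E14.5 and 3 at P0 in suprabasal-like cells, and fits of the WT libraries called 3 in basal-like and 15 in suprabasal-like cells for E16.5 against E14.5. Replicate numbers came with correlations of -0.06 to -0.0031 and do not pair the libraries; a replicate block left 1 suprabasal-like call for the change of genotype between ages. With each library left out in turn, calls ran from 1 to 8 (basal-like) and 1 to 16 (suprabasal-like) for E16.5 against E14.5, 14 to 36 for P0 against E16.5 in suprabasal-like cells, 6 to 20 and 1 to 7 for the change of genotype between ages, 0 to 1, 0 to 2 and 10 to 22 for genotype in suprabasal-like cells at E14.5, E16.5 and P0, and 9 to 24 and 25 to 44 for stage at E14.5 and E16.5. With 5 bins the summed members ended at 1.09 times their first bin at P0, against 1.05 with 10. At no tolerance around the start 4.08% of members held a tract. The fit without integration gave no value for genotype in suprabasal-like cells at P0. There both Grhl3-/- libraries had too few such cells, 4 and 5 against 126 and 628 in WT. The causes were not tested.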

Other observations

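The P0 WT library of version 1 reagents, which entered no test, gave some members at other levels than the P0 WT libraries of version 2; those below were chosen after their values were seen. In basal-like cells Eif4a1 stood at 1166 plain CPM, against 1178 and 1201 at E16.5 and 491 and 509 in the version 2 P0 WT libraries, Eif4ebp1 at 128 against 111 and 143 and 57.4 and 60.0, and Eif1ad at 80.8 against 62.5 and 69.5 and 32.6 and 27.1. Eef1e1 stood at 47.2, between 92.0 and 96.0 at E16.5 and 20.6 and 26.9 at P0. Eef2k at 58.7 lay between 48.1 and 50.2 at E16.5 and 92.0 and 73.8 at P0. Eif1b at 55.0 was near the version 2 P0 libraries (44.3 and 50.5) and below E16.5 (107 and 106). Its rise of Eif5a along the order, from 1503 CPM in bin 1 to 2339 in bin 10, began above the last bin of both version 2 libraries. Reagents, animal and preparation cannot be told apart for this library.

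In P0 WT skin the levels of all classes, keratinocytes among them, rested on 2 libraries. Of 60 members with a median above 1 CPM, 17 had their highest median in sebaceous-like, 11 in hair follicle-like, 9 in suprabasal-like and 8 each in T cell-like and melanocyte-like cells. The lowest median of 14 members lay in suprabasal-like cells. Eif6 had a median of 512 CPM (451 to 573) in suprabasal-like and 216 (165 to 266) in Merkel-like cells, the next class. Eif4e3, nearly absent from suprabasal-like cells, had its highest median in Merkel-like cells at 60.3 CPM (43.5 to 77.1).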
